A study of Homo sapiens with 12 samples.

Results

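The 10 genes described here encode secreted ligands of the TGF-β family: the TGF-β isoforms TGFB1, TGFB2 and TGFB3, the bone morphogenetic proteins BMP2, BMP4, BMP6 and BMP7, the activin and inhibin subunits INHBA and INHBB, and the growth differentiation factor GDF11. They were chosen by name, as 10 of the 58302 gene identifiers in the count table. Their RNA was measured in NCIH838 lung cancer cells carrying a doxycycline (Dox)-inducible Cas9 and a guide against MIB1, an E3 ubiquitin ligase, in a line grown from a single cell. All cells were first held for 3 days in 50 nM LDN, an inhibitor of BMP type I receptors, either without Dox (MIB1 WT) or with 0.5 µg/mL Dox (MIB1 KO). All cells then received 10 ng/mL BMP4 protein for 24 hours, together with LDN (BMP-off) or with the DMSO vehicle in its place (BMP-on). The 4 groups of 3 libraries were thus MIB1 WT BMP-off, MIB1 WT BMP-on, MIB1 KO BMP-off and MIB1 KO BMP-on. Every KO library came from Dox-treated cells with Cas9 induced and every WT library from cells without Dox, so Dox, Cas9 and MIB1 loss cannot be told apart, and the line is 1 clone. The labels do not say that the replicates were separate cultures, so the p-values measure only the spread between these samples.

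Ligands of the TGF-β family are made as precursors, cut by proprotein convertases such as furin, and act as dimers on pairs of type I and type II receptor kinases. BMPs signal mainly through SMAD1, SMAD5 and SMAD9, whereas TGF-βs, activins and GDF11 signal mainly through SMAD2 and SMAD3. TGF-βs are secreted in a latent form, bound to latent TGF-β binding proteins, and integrins or thrombospondin can release them, while TGF-β2 in particular relies on the coreceptor betaglycan (TGFBR3) to reach its receptors. The BMP4 protein added to the dishes is not seen by RNA-seq, which reads only the transcripts of the cells' own genes.

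The promoters of the 3 ligand genes whose RNA passed a test below are shown first, because they differ in base composition as the transcripts do. Each line is the 250 bases upstream of the RefSeq gene start on GRCh38.p14, on the gene's own strand, for TGFB2 (chr1:218345086-218345335, plus strand), TGFB1 (chr19:41353923-41354172, minus strand) and GDF11 (chr12:55742872-55743121, plus strand). Capitals mark matches on either strand to any of 5 motifs searched.
TGFB2: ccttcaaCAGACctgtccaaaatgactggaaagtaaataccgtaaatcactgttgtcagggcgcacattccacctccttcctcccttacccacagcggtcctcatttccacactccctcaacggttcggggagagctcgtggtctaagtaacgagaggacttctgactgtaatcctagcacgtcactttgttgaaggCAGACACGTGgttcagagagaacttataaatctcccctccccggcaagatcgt
TGFB1: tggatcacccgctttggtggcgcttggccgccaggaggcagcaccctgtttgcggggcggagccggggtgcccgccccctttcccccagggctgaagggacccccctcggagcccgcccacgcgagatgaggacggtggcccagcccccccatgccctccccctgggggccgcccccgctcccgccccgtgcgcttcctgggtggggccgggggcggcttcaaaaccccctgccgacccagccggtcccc
GDF11: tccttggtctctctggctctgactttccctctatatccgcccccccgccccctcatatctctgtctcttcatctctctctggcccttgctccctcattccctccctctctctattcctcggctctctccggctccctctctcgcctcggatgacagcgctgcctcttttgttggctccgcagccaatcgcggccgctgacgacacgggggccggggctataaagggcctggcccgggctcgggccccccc

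The TGFB2 window was 50.4% G and C, against 76.8% for TGFB1 and 64.4% for GDF11, with a median of 58% over all 35116 windows. It held 2 matches to CAGAC, a short SMAD-binding sequence that 38% of all windows hold, and 1 match to the E-box CACGTG, held by 6.34% of windows. The second CAGAC in that window shares a base with the E-box. The other motifs searched were the GC-rich SMAD sequence GGCGCC, held by 16.4% of windows, the cyclic AMP response sequence TGACGTCA, held by 1.65%, and the AP-1 sequence TGANTCA, held by 6.57%. None of the 5 motifs was found in the TGFB1 or GDF11 window. Among the other ligand genes, the TGFB3 window at chr14:75983012-75983261 also held 2 matches to CAGAC and 1 to CACGTG. The BMP4 window at chr14:53953396-53953645 held 1 match to each, and that at chr14:53955051-53955300 held 1 to CAGAC and 1 to GGCGCC. INHBB held 2 matches to GGCGCC. The remaining BMP4 and TGFB3 windows and those of BMP6 and INHBA held none of the 5 motifs. Such matches are descriptions of letters, and 8 of the 10 ligand genes had a window in the RefSeq table.

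The libraries held 19124010 to 29498000 counts, and 17188 genes had enough counts to be tested, including 9 of the 10 ligand genes. MIB1 RNA checked the labels, with a log2 fold change in KO against WT of -2.23 (SE 0.07) BMP-off and -2.34 (SE 0.07) BMP-on. The keratins KRT7, KRT8 and KRT18 had at least 1227 counts in every library. KRT19 had 0 to 2 counts. Of the lung markers, NKX2-1, SFTPB and SFTPC had 0 to 2 counts and NAPSA had 6 to 27. The label of lung epithelium thus rested on KRT7, KRT8 and KRT18 with EPCAM and CDH1. Of 6 fibroblast markers 3 were tested and COL1A1 and PDGFRB rose in the KO response, while COL1A2, COL3A1 and DCN had at most 8 counts, and the part of these genes in the ligand results was not tested. The blood marker PTPRC had 0 counts in all 12 libraries. Within groups, the libraries differed in a trend with transcript GC content, with a Spearman correlation across genes between -0.60, in replicate 2 of KO BMP-off, and 0.58, in replicate 3 of the same group. Of 10 BMP target genes tested, such as ID2 and SMAD6, 9 rose with BMP in WT and 9 in KO cells, where 1.91% and 11.1% of all genes rose.

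The ligand genes spanned more than 3 orders of level on the RPKM scale deposited by the study, which corrects for transcript length. TGFB1 was the most abundant, at 46.7 ± 7.87 RPKM (SD over all 12 libraries), followed by BMP6 at 21.8 ± 1.66, TGFB3 at 6.40 ± 0.414 and GDF11 at 2.90 ± 0.185. BMP4 stood at 1.01 ± 0.158 RPKM and TGFB2 at 0.741 ± 0.305. INHBA (0.172 ± 0.0245 RPKM), BMP2 (0.146 ± 0.0383), INHBB (0.106 ± 0.0392) and BMP7 (0.0257 ± 0.0152) were the least abundant. The first 5 of these genes kept separate ranges over the 12 libraries, from TGFB1 down to BMP4. The ranges of BMP4 and TGFB2 overlapped, as did those of INHBA with BMP2, BMP2 with INHBB, and INHBB with BMP7, so the order of those neighbours was within their spread.

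**Figure D1:**
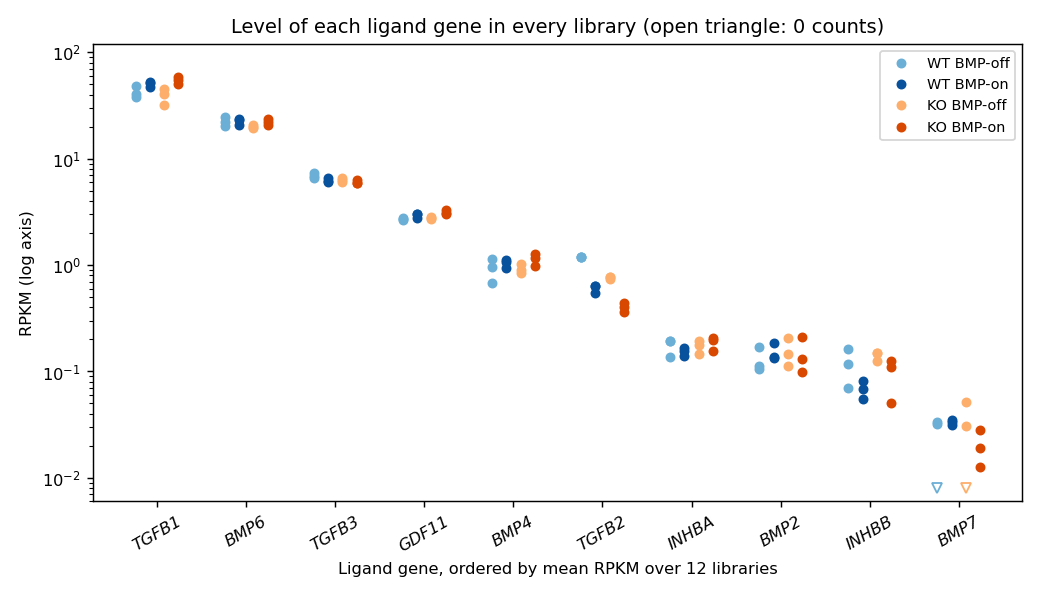
RPKM (log axis) of the 10 ligand genes in each of the 12 libraries, with genes on the x axis ordered by mean level and points coloured by group. TGFB1 lies between 31.8 and 59.1 RPKM in every library, TGFB2 is split by group, and open triangles mark the 2 libraries with 0 counts of BMP7.

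TGFB2, encoding the TGF-β2 ligand (chr1:218345336-218444619), was the ligand gene that changed most, and it fell in the BMP response of WT cells, in that of KO cells and with MIB1 loss BMP-on. It read 5.68, 5.78 and 5.82 CPM (counts scaled to a common library size) in WT BMP-off, and 2.66, 3.08 and 3.09 CPM in WT BMP-on. In KO BMP-off it read 3.70, 3.49 and 3.79 CPM, and in KO BMP-on 2.18, 1.98 and 1.79 CPM. The 4 groups did not overlap: WT BMP-off was highest, then KO BMP-off, WT BMP-on and KO BMP-on. Relative to the WT BMP-off mean, TGFB2 stood at 51.1% in WT BMP-on, 63.5% in KO BMP-off and 34.5% in KO BMP-on.

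By edgeR's quasi-likelihood test, with Benjamini-Hochberg adjustment over all tested genes, the BMP response of TGFB2 was a log2 fold change of -0.96 (SE 0.11, adjusted p = 8.6e-05) in WT cells. In KO cells it was -0.88 (SE 0.13, adjusted p = 0.000148). These 2 responses differed by 0.08 on the log2 scale (95% interval -0.29 to 0.46, edgeR adjusted p = 0.890), which is within the error of the fit. Both responses passed the threshold of 0.05 in all alternative fits, including those that left out each library in turn.

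The effect of MIB1 loss on TGFB2 was of similar size in both BMP states, and whether it passed the threshold changed with the fit. KO against WT gave -0.57 (SE 0.13, edgeR adjusted p = 0.0237) BMP-on and -0.65 (SE 0.11, edgeR adjusted p = 0.0501) BMP-off, the latter just outside the threshold. The BMP-on call was lost with DESeq2 (adjusted p = 0.0689). It was also lost in edgeR without WT BMP-on replicate 2 (adjusted p = 0.105) or 3 (adjusted p = 0.105), as well as when KO BMP-on replicate 2 (adjusted p = 0.0681) or 3 (adjusted p = 0.131) was left out. BMP-off, the change passed with DESeq2 (adjusted p = 0.0322), and in edgeR with a minimum of 10 counts per library (adjusted p = 0.0494), with no low-count filter (adjusted p = 0.00359) and with the GC offset (adjusted p = 0.00589). It missed the threshold with limma-voom (adjusted p = 0.0582) and, in edgeR, with library-size scaling (adjusted p = 0.0546) and with only the compared groups fitted (adjusted p = 0.337). Of 12 edgeR fits that left out a library, 2 called it, without WT BMP-off replicate 1 (adjusted p = 0.0484) and without KO BMP-off replicate 3 (adjusted p = 0.0461), and adjusted p reached 0.269 in the others. The direction was downward in every one of these fits. The 95% intervals were -0.86 to -0.29 BMP-on and -0.89 to -0.42 BMP-off.

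TGFB2 rested on 38 to 158 counts per library. The antisense gene TGFB2-AS1, which overlaps it on the opposite strand, had 2 to 13 counts, and TGFB2-OT1, which lies on the same strand, had 0 in every library. The counting is not stated to use strand, so reads of TGFB2 and TGFB2-AS1 cannot be told apart. TGFB2-AS1 had log2 fold changes of -0.80 (SE 0.54, edgeR adjusted p = 0.537) in the WT response and -0.63 (SE 0.46, edgeR adjusted p = 0.345) in the KO response, the direction of TGFB2. In KO against WT its values were 0.67 (SE 0.55, edgeR adjusted p = 0.672) BMP-on and 0.51 (SE 0.44, edgeR adjusted p = 0.687) BMP-off, the opposite direction.

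The order of TGFB2 and BMP4 differed between groups on the RPKM scale. In WT BMP-off, TGFB2 was at 1.19, 1.19 and 1.20 RPKM, above BMP4 at 0.686, 0.965 and 1.13 RPKM. That order depended on the length used, since as CPM per kilobase of the longest transcript TGFB2 (0.968 to 0.992) lay within the range of BMP4 (0.707 to 1.18) in WT BMP-off. In KO BMP-on, TGFB2 was at 0.443, 0.405 and 0.364 RPKM, below BMP4 at 1.18, 0.973 and 1.27 RPKM. TGFB2 was below BMP4 with no overlap in WT BMP-on, KO BMP-off and KO BMP-on on both scales.

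TGFB1 (chr19:41301587-41353922), encoding TGF-β1, rose with BMP in KO cells, and its size depended on how GC content was handled. It read 99.0, 108 and 128 CPM in WT BMP-off and 125, 139 and 141 CPM in WT BMP-on. In KO BMP-off it read 106.1, 81.7 and 121 CPM, and in KO BMP-on 160, 147 and 137 CPM. The KO groups did not overlap, whereas the WT groups did.

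The TGFB1 response was 0.52 (SE 0.13, edgeR adjusted p = 0.0194) in KO cells and 0.28 (SE 0.13, edgeR adjusted p = 0.369) in WT cells. The difference between them was 0.24 (95% interval -0.18 to 0.66, edgeR adjusted p = 0.643). The KO call was lost without KO BMP-on replicate 1 (0.46, edgeR adjusted p = 0.0684) and with no filter on low counts (0.52, edgeR adjusted p = 0.0682). The TGFB1 transcript was 63.6% G and C, the highest of the 10 genes, and the KO BMP-off library lowest for TGFB1, replicate 2, had the most negative GC trend of all libraries. With the GC trend of each library as an offset, the response was 0.14 (edgeR adjusted p = 0.0261) in KO and 0.15 (edgeR adjusted p = 0.0357) in WT cells. The offset also removes any GC trend that lies between groups. TGFB1 overlaps HNRNPUL1, CCDC97 and TMEM91 on the opposite strand, of which TMEM91 had a BMP response in KO cells of 0.54 (SE 0.15, edgeR adjusted p = 0.0146) on 73 to 154 counts.

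**Figure D2:**
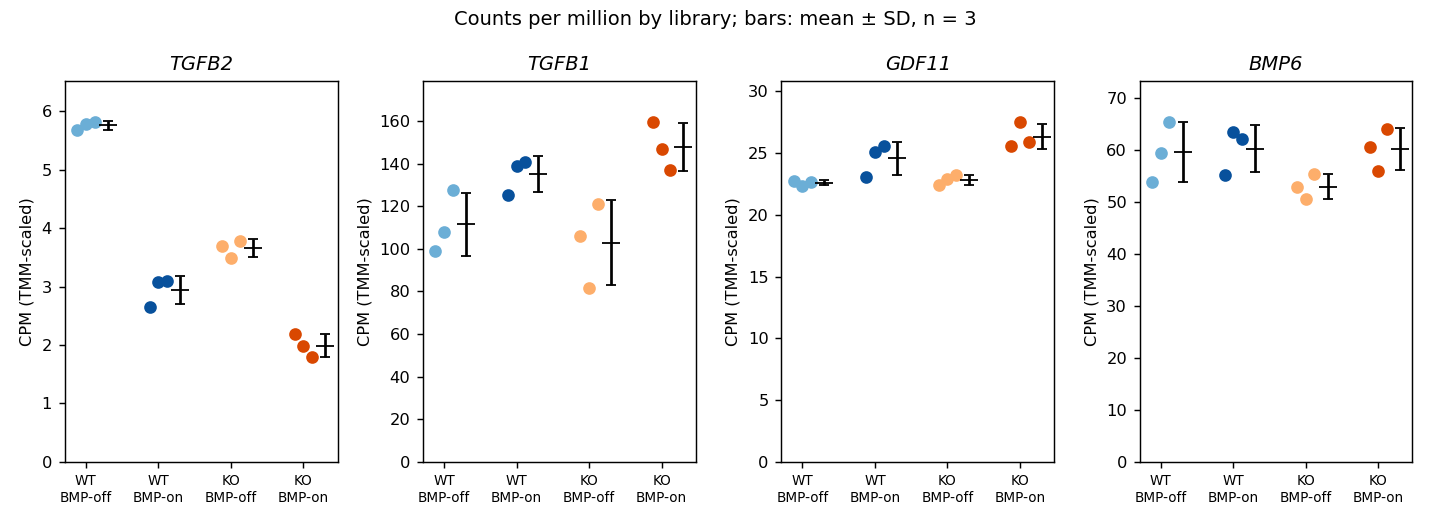
CPM (y axes, from 0) of TGFB2, TGFB1, GDF11 and BMP6 in each library, by group on the x axis, with bars for the mean ± SD of 3 libraries. TGFB2 forms 4 groups that do not overlap, from 5.68 CPM or more in WT BMP-off to 2.18 CPM or less in KO BMP-on, while TGFB1 and GDF11 are higher BMP-on than BMP-off in the KO cells.

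**Figure D3:**
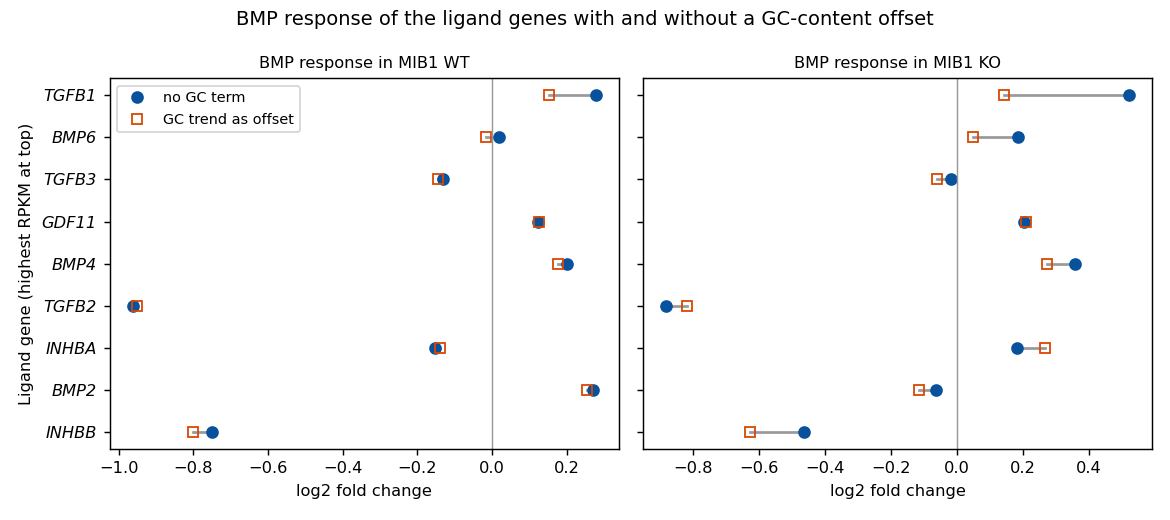
Log2 fold change of the BMP response (x axes) for the 9 tested ligand genes (y axis) in MIB1 WT and MIB1 KO cells, without a GC term (filled circles) and with the GC trend of each library as an offset (open squares). TGFB1 in KO cells moves from 0.52 to 0.14, while TGFB2 moves from -0.88 to -0.82.

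TGFB3 (chr14:75958097-75983011), the remaining TGF-β isoform, read 19.3, 17.5 and 18.3 CPM in WT BMP-off and 17.5, 16.6 and 16.2 CPM in WT BMP-on. It read 16.6, 15.7 and 17.6 CPM in KO BMP-off and 16.1, 16.0 and 17.1 CPM in KO BMP-on, and the groups overlapped in each comparison. Its BMP response was -0.13 (95% interval -0.29 to 0.02, edgeR adjusted p = 0.437) in WT and -0.02 (95% interval -0.18 to 0.14, edgeR adjusted p = 0.890) in KO cells. These intervals leave out changes of the size seen for TGFB2. IFT43, on the opposite strand, overlaps it with 460 to 686 counts.

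GDF11 (chr12:55743122-55757264), a ligand close to myostatin that signals through activin receptors, rose slightly with BMP in KO cells. It read 22.7, 22.3 and 22.7 CPM in WT BMP-off, 23.0, 25.1 and 25.5 CPM in WT BMP-on, 22.4, 22.9 and 23.2 CPM in KO BMP-off, and 25.6, 27.5 and 25.9 CPM in KO BMP-on. BMP-on libraries did not overlap BMP-off libraries in KO cells, and the WT groups did not overlap either. The response was 0.20 (SE 0.06, edgeR adjusted p = 0.0295) in KO and 0.12 (SE 0.06, edgeR adjusted p = 0.389) in WT cells, with a difference of 0.08 (95% interval -0.11 to 0.27, edgeR adjusted p = 0.738). The KO call was lost with limma-voom (0.13, adjusted p = 0.168), with no low-count filter (adjusted p = 0.1003), with only the KO groups fitted (adjusted p = 0.0781), and in 5 of 12 edgeR fits that left out a library. Those 5 were without KO BMP-off replicate 1 (adjusted p = 0.114) or 2 (adjusted p = 0.0638), and the fits lacking KO BMP-on replicate 1 (adjusted p = 0.0667), 2 (adjusted p = 0.109) or 3 (adjusted p = 0.0620).

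Among the BMPs, BMP6 (chr6:7726099-7881728) was the most abundant. It read 54.0, 59.6 and 65.5 CPM in WT BMP-off, 55.2, 63.6 and 62.2 CPM in WT BMP-on, 53.0, 50.6 and 55.4 CPM in KO BMP-off, and 60.6, 55.9 and 64.0 CPM in KO BMP-on. The KO groups did not overlap, but the lowest BMP-on library stood only just above the highest BMP-off library. The KO response was 0.18 (SE 0.08, edgeR adjusted p = 0.0906), outside the threshold. With the GC offset it was 0.05 (edgeR adjusted p = 0.605), and with no low-count filter it was 0.18 and passed (edgeR adjusted p = 0.0466). The WT response was 0.02 (95% interval -0.14 to 0.18, edgeR adjusted p = 0.937).

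BMP4 (chr14:53949736-53958761), the gene of the ligand added to the medium, rested on 38 to 67 counts. It read 1.37, 1.96 and 2.27 CPM in WT BMP-off, 1.90, 2.16 and 2.26 CPM in WT BMP-on, 1.81, 1.65 and 2.06 CPM in KO BMP-off, and 2.41, 1.98 and 2.60 CPM in KO BMP-on. The groups overlapped in every comparison. Its BMP response was 0.20 (95% interval -0.20 to 0.60, edgeR adjusted p = 0.679) in WT and 0.36 (95% interval -0.04 to 0.75, edgeR adjusted p = 0.183) in KO cells, so a rise of the endogenous gene of that size was not resolved at this depth.

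BMP2 (chr20:6767686-6780246) and BMP7 (chr20:57168753-57266641) were close to undetected. BMP2 had 10, 9 and 13 counts in WT BMP-off, 11, 14 and 18 in WT BMP-on, 11, 17 and 12 in KO BMP-off, and 12, 14 and 9 in KO BMP-on. All groups of BMP2 overlapped, with BMP responses of 0.27 (95% interval -0.47 to 1.01, edgeR adjusted p = 0.786) in WT and -0.06 (95% interval -0.80 to 0.67, edgeR adjusted p = 0.920) in KO cells. BMP7 had 0, 3 and 3 counts in WT BMP-off, 3, 4 and 4 in WT BMP-on, 6, 3 and 0 in KO BMP-off, and 3, 1 and 2 in KO BMP-on, and was not tested. It had 0 counts in WT BMP-off replicate 1 and KO BMP-off replicate 3, where a count of 0 allows a level of up to 0.108 and 0.126 CPM. These limits take 3 counts as the most that a count of 0 allows and cover counting error only.

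The activin subunit genes were also scarce. INHBA (chr7:41667168-41705834), which encodes the subunit of activin A, had 24, 28 and 27 counts in WT BMP-off, 25, 26 and 28 in WT BMP-on, 26, 27 and 29 in KO BMP-off, and 33, 19 and 34 in KO BMP-on. Its CPM overlapped between groups, with BMP responses of -0.15 (95% interval -0.62 to 0.31, edgeR adjusted p = 0.821) in WT and 0.18 (95% interval -0.27 to 0.64, edgeR adjusted p = 0.582) in KO cells. INHBB (chr2:120346136-120351803), the subunit of activin B, had 3 to 11 counts. It read 0.359, 0.217 and 0.500 CPM in WT BMP-off and 0.211, 0.171 and 0.251 CPM in WT BMP-on, and these groups overlapped. KO BMP-off libraries held 0.384, 0.442 and 0.463 CPM and KO BMP-on libraries 0.345, 0.157 and 0.388 CPM, again with overlap. Its response was -0.75 (95% interval -1.64 to 0.15, edgeR adjusted p = 0.441) in WT and -0.46 (95% interval -1.27 to 0.35, edgeR adjusted p = 0.416) in KO cells. The INHBB intervals include changes as large as those of TGFB2, whereas the INHBA intervals do not.

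MIB1 loss moved no other tested ligand gene past the threshold in either BMP state, by edgeR with adjustment over all genes. TGFB1 in KO against WT was 0.13 (95% interval -0.17 to 0.43, adjusted p = 0.771) BMP-on and -0.11 (95% interval -0.41 to 0.18, adjusted p = 0.776) BMP-off, the latter turning to 0.048 with the GC offset. GDF11 was 0.10 (95% interval -0.04 to 0.23, adjusted p = 0.551) BMP-on, where the groups did not overlap, and 0.02 (95% interval -0.12 to 0.15, adjusted p = 0.940) BMP-off. Of the 9 genes, GDF11 had the narrowest intervals here.

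BMP6 in KO against WT was -0.17 (95% interval -0.33 to -0.01, unadjusted p = 0.0395, edgeR adjusted p = 0.470) BMP-off. BMP-on it was -0.0028 (95% interval -0.16 to 0.16, edgeR adjusted p = 0.994). TGFB3 was -0.14 (95% interval -0.30 to 0.01, edgeR adjusted p = 0.528) BMP-off and -0.03 (95% interval -0.19 to 0.13, edgeR adjusted p = 0.920) BMP-on. For the scarcer genes the intervals were wider, as with INHBA BMP-on at 0.30 (95% interval -0.16 to 0.76) and INHBB BMP-on at 0.54 (95% interval -0.39 to 1.47). BMP4 was 0.16 (95% interval -0.23 to 0.54) BMP-on and BMP2 -0.10 (95% interval -0.83 to 0.63).

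**Figure D4:**
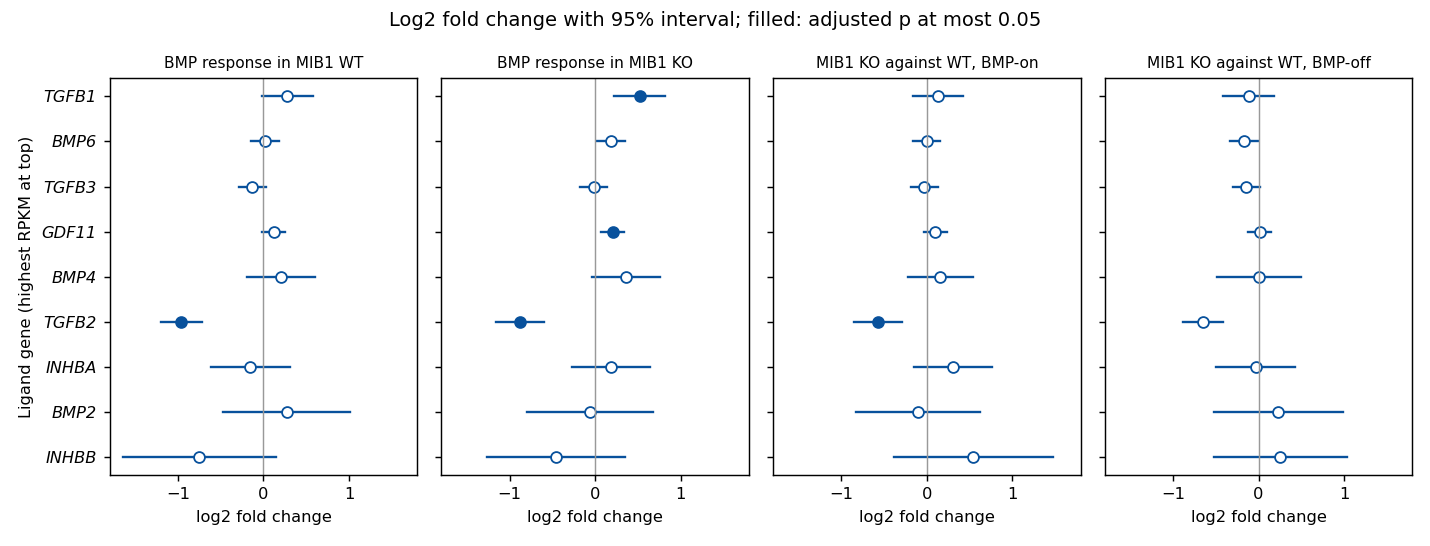
Log2 fold change with its 95% interval (x axes) for the 9 tested ligand genes (y axis, highest RPKM at the top) in 4 comparisons, with filled points at an adjusted p of at most 0.05. TGFB2 is filled in 3 panels, at -0.96, -0.88 and -0.57, TGFB1 and GDF11 in the KO response only, and the intervals of BMP2 and INHBB are the widest.

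Counted over the group, 1 of 9 tested ligand genes was called in the BMP response of WT cells (lower), where 3.92% of all genes were called. In the BMP response of KO cells 3 of 9 were called (2 higher and 1 lower), where 22.0% of all genes were. With KO against WT BMP-on, 1 of 9 was called (lower), where 3.67% of all genes were. BMP-off, edgeR called 0 of 9 against 0.0407% of all genes, with 1 called by DESeq2 and 0 by limma-voom. With edgeR, 2 of 9 had an unadjusted p under 0.05 there, against 10.2% of all genes. For the interaction of MIB1 loss with BMP, edgeR called 0 of 9 against 0.0931% of all genes, with 0 called by DESeq2 and 0 by limma-voom. In that interaction 0 of 9 had an unadjusted p under 0.05 in edgeR, against 10.6% of all genes. No ligand gene passed the adjusted p together with a log2 change of 1 or more in either direction, which 0.425% of all genes did in the WT response, 1.66% in the KO response, 0.140% in KO against WT BMP-on, 0.0116% BMP-off and 0% in the interaction. Groups did not overlap for 2 of 9 ligand genes in the WT response, against 23.9% of all genes, for 4 of 9 in the KO response, against 35.8%, for 2 of 9 in KO against WT BMP-on, against 23.6%, and for 1 of 9 BMP-off, against 11.7%.

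The 3 genes whose centred log2 CPM over the 12 libraries lay closest to that of TGFB2, among 12837 candidates, were C5AR1, MBP and SAA1. C5AR1 encodes a receptor for complement C5a, MBP the myelin basic protein and SAA1 an acute-phase protein. Their root mean square differences from TGFB2 were 0.159 for C5AR1, 0.161 for MBP and 0.168 for SAA1 on the log2 scale.

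Of 20 genes that process ligands or hold them latent, 14 were tested. In the WT response 1 rose and 3 fell, in the KO response 6 rose and 3 fell, and in KO against WT BMP-on 3 fell. The 4, 9 and 3 called of 14 stand beside 3.92%, 22.0% and 3.67% of all genes. ITGB8, THBS1 and LTBP1 were the 3 that fell, in each of these comparisons. Over these 14 genes the median change was 0.15 in the WT response and 0.21 in the KO response on the log2 scale, against 0.0016 and 0.0056 over all genes. In KO against WT BMP-off, edgeR called 0 of 14, against 0.0407% of all genes, with 0 called by DESeq2 and 0 by limma-voom. With edgeR, 4 of 14 had an unadjusted p under 0.05 there, against 10.2% of all genes.

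ITGB8, the β subunit of the integrin αvβ8 that binds latent TGF-β, responded to BMP with -0.60 (SE 0.11) in WT and -0.93 (SE 0.12) in KO cells. In KO against WT BMP-on it was -0.63 (SE 0.12). THBS1, the thrombospondin that can activate latent TGF-β, gave -0.46 (SE 0.09) and -0.92 (SE 0.09) for the WT and KO responses, and -0.51 (SE 0.09) for KO against WT BMP-on. LTBP1, which anchors latent TGF-β in the matrix, gave -0.31 (SE 0.06) in the WT response and -0.31 (SE 0.06) in KO against WT BMP-on. The BMP-on call of ITGB8 was lost without WT BMP-on replicate 2 (-0.48, edgeR adjusted p = 0.0519). That of LTBP1 was lost without WT BMP-on replicate 2 (-0.25, edgeR adjusted p = 0.0661) or KO BMP-on replicate 2 (-0.26, edgeR adjusted p = 0.0603), and its WT response without WT BMP-on replicate 1 (-0.25, edgeR adjusted p = 0.0626). In the other direction, the convertase FURIN rose by 1.11 (SE 0.14) in the KO response, and PCSK7 by 0.51 (SE 0.10) in the WT and 0.75 (SE 0.10) in the KO response. FURIN in the WT response was 0.54 (SE 0.14, edgeR adjusted p = 0.0660), outside the threshold. Its 2 responses differed by 0.56 (95% interval 0.12 to 1.01, edgeR adjusted p = 0.354).

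**Figure D5:**
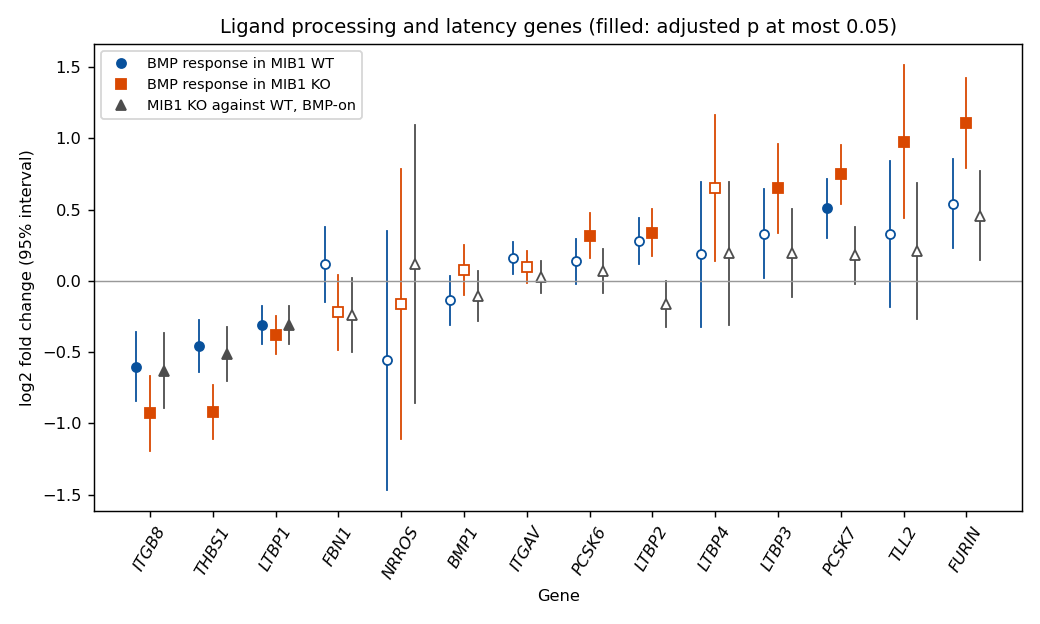
Log2 fold change with its 95% interval (y axis) for the 14 tested genes of ligand processing and latency (x axis, ordered by the KO response) in the BMP response of WT cells, the BMP response of KO cells and KO against WT BMP-on, filled at an adjusted p of at most 0.05. ITGB8, THBS1 and LTBP1 are below 0 and filled in all 3 comparisons, and FURIN is highest in the KO response at 1.11.

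Among 10 receptors tested of 14, 2 were called in the WT response (1 higher, 1 lower, against 3.92% of all genes), 3 in the KO response (2 higher, 1 lower, against 22.0%) and 1 in KO against WT BMP-on (lower, against 3.67%). TGFBR3, the betaglycan coreceptor, responded to BMP with -0.38 (SE 0.05) in WT and -0.73 (SE 0.05) in KO cells, and was -0.39 (SE 0.05) in KO against WT BMP-on. BMPR2, the BMP type II receptor, gave 0.40 (SE 0.08) in WT and 0.49 (SE 0.08) in KO cells. The type I receptor ACVR1 rose by 0.22 (SE 0.06) in the KO response, a call lost without KO BMP-off replicate 3 (0.15, edgeR adjusted p = 0.0752) or any of the KO BMP-on replicates 1 (adjusted p = 0.0543), 2 (adjusted p = 0.0541) and 3 (adjusted p = 0.0633).

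Of 17 ligand traps 11 were tested. In the WT response 1 rose and 0 fell, where 3.92% of all genes were called. In the KO response 1 rose and 2 fell (22.0% of all genes called), and in KO against WT BMP-on 1 rose and 1 fell (3.67%). NOG, which encodes the BMP antagonist noggin, rose by 1.45 (SE 0.14) in the WT and 2.30 (SE 0.12) in the KO response. In KO against WT BMP-on NOG was 1.24 (SE 0.11) higher. In the KO response FSTL1 fell by 0.21 (SE 0.04) and TWSG1 by 0.28 (SE 0.05). TWSG1 was also called in KO against WT BMP-on, at -0.19 (SE 0.05, edgeR adjusted p = 0.0484), a call lost in 13 of 20 alternative fits. Of the other 23 ligands of the family only 5 were tested, and only BMP8B was called, in the KO response (22.0% of all genes), at -0.33 (SE 0.09). That call was lost without KO BMP-on replicate 1 (-0.29, edgeR adjusted p = 0.0774) and with only the KO groups fitted (-0.33, edgeR adjusted p = 0.0545).

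Of 11 genes known as targets of SMAD2 and SMAD3, the effectors of TGF-β and activin ligands, 4 rose and 0 fell in the WT response and 8 rose and 0 fell in the KO response, where 1.91% and 11.1% of all genes rose. PMEPA1, an inhibitor of TGF-β signalling, rose by 0.38 (SE 0.05) in WT and 0.61 (SE 0.05) in KO cells. Of the 4 WT calls, that of SNAI2 (1.36, SE 0.37, edgeR adjusted p = 0.0483) was lost in 9 of 18 alternative fits. Those of PMEPA1, SKI and SKIL were kept in all 20. The KO call of SKI was lost with the GC offset (0.20, edgeR adjusted p = 0.0712). In KO against WT BMP-on edgeR called 0 of 11, against 3.67% of all genes, with 0 called by DESeq2 and 0 by limma-voom. With edgeR, 3 of 11 had an unadjusted p under 0.05 there, against 13.8% of all genes.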

How the data were processed

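RNA was sequenced from 12 libraries of NCIH838 cells, 3 in each of 4 groups. By the study's account, the authors discarded reads of ribosomal RNA before deposit, used GSNAP for alignment to GRCh38 and HTSeqGenie for counting over RefSeq exons. Ensembl gene identifiers label the deposited counts, and how these relate to RefSeq exons is not stated. The deposited counts per gene entered every test. The deposited RPKM values, normalized for length by the authors, were used only to order genes by level. Columns left out numbered 0. The ligand genes and pathway lists were chosen with earlier results of these data known. edgeR 4.0.16 (R 4.3.3; filterByExpr, TMM, robust quasi-likelihood fit over all 4 groups) tested 17188 genes, with Benjamini-Hochberg adjustment over all of them and a threshold of 0.05. CPM are scaled by TMM. The test was first checked on simulated counts. All 10 ligand genes are named. Genes named from a pathway list are from its called members, up to 4 per comparison by smallest p, and not all of those are named. The genes closest in pattern were sought for the ligand gene with the widest range of group means, among genes averaging at least 50 counts. LTBP1 in the KO response was named after its values were seen. Gene positions are from the GENCODE annotation of GRCh38. Alternatives were DESeq2 1.42.0, limma-voom 3.58.1 with quantile normalization (the study's method), library-size scaling, a minimum of 10 counts per library, no low-count filter, only the groups compared, a replicate block, a loess offset on transcript GC content (each library against the mean of all, so trends between groups are removed too) and each library left out.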

Additional observations from a re-analysis of the deposited data

Results flagged for a closer look

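BAMBI is a decoy receptor that is induced by BMP. Among the lists, only its BMP response passed the threshold of 0.05 for a difference between MIB1 WT and KO cells. That difference was 0.96 on the log2 scale (edgeR adjusted p = 0.00263 for the interaction). TGFBR3 was just outside the threshold, at -0.35 (edgeR adjusted p = 0.0515 for the interaction). No ligand gene met that test. Groups of 3 are too small for the test of single outlying libraries.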

How the results depend on the processing

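Same-numbered replicates did not deviate together (correlations -0.187 to 0.189, 2 of 18 pairs above 0.1, 3 of 12 libraries closest to their own number), so the numbers share only a name. The fit with a replicate block called 0 ligand genes in KO against WT BMP-on (TGFB2, adjusted p = 0.0524), and in the other comparisons it called as many as without the block. DESeq2 also called 0 there. In KO against WT BMP-off, 1 was called (TGFB2) with DESeq2, with at least 10 counts in every library, with no filter and with the GC offset, against 0. The GC offset gave 2 in the WT response, adding TGFB1. Requiring a log2 change of 1 as well left 0 in each comparison. With single libraries left out, 1 to 3 were called in the KO response, 0 to 1 in KO against WT BMP-on and 0 to 1 BMP-off. The fewest in the KO response came without KO BMP-on replicate 1.

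Signs turned only in uncalled log2 fold changes. BMP4 in KO against WT BMP-off, at -9.2e-05, became 0.053 with limma-voom, 0.0056 with library-size scaling, 0.00025 with at least 10 counts, 0.0071 with only the groups compared, 0.0023 with the replicate block and 0.044 with the GC offset. BMP6 became -0.017 in the WT response with the GC offset, and 0.0067 with limma-voom and 0.021 with library-size scaling in KO against WT BMP-on. TGFB1 became 0.048 in KO against WT BMP-off and -0.011 in the interaction with the GC offset, and TGFB3 became 0.00075 in the KO response with library-size scaling. Leaving out single libraries gave ranges across 0 for BMP2 (-0.35 to 0.17 in the KO response, -0.0037 to 0.47 in KO against WT BMP-off, -0.39 to 0.12 BMP-on), BMP4 (-0.19 to 0.16 in KO against WT BMP-off, -0.010 to 0.34 in the interaction) and BMP6 (-0.044 to 0.086 in the WT response, -0.064 to 0.042 in KO against WT BMP-on). The same held in KO against WT BMP-off for INHBA (-0.19 to 0.085) and TGFB1 (-0.24 to 0.028), for TGFB2 in the interaction (-0.0070 to 0.15) and for TGFB3 in the KO response (-0.060 to 0.0094). The causes were not tested. Of 865 values of ligand genes under the alternatives, 802 kept direction and call. The order by mean RPKM over all libraries was the same with CPM per length of the longest transcript.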
